A study of Mus musculus with 15 samples.

Results

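The FGF receptor genes are Fgfr1, Fgfr2, Fgfr3, Fgfr4 and Fgfrl1. H3K27ac peaks were taken as belonging to these genes when they overlapped the RefSeq span of a gene or the 100 kb on either side of it in the mouse genome build mm10. This gave 137 of the 122375 peaks in the list. Each peak was put in 1 class, as promoter when it overlapped the 2 kb on either side of a start site, as gene body when it overlapped the rest of the gene, and as flank otherwise. Fgfr1 held 86 of the 137 peaks, Fgfr4 19, Fgfr3 14, Fgfrl1 11 and Fgfr2 7.

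The series compared tumors of 2 mouse models of fusion-positive rhabdomyosarcoma (FP-RMS), a muscle-like cancer of children in which a chromosome fusion makes the transcription factor PAX3-FOXO1 (P3F), by CUT&RUN, which releases and sequences the DNA bound by an antibody. MCP tumors carried Myf6-Cre, a Cre recombinase under Myf6 that acts in muscle cells. TCP tumors carried Tek-Cre, which acts in endothelial and hematopoietic cells. Both had Cdkn2a Flox/Flox, Pax3 P3F/P3F and the R26-tdTom reporter, so loss of Cdkn2a and gain of P3F were common to all groups. The 15 libraries comprised 6 MCP and 3 TCP libraries for H3K27ac and 3 MCP and 3 TCP libraries for IgG, a control antibody. The peak list used came from 1 library, MCP H3K27ac replicate 5, and the other libraries were not used here. There was therefore no replicate, no comparison of MCP with TCP and no test, and every value below describes 1 library. It was made from live cells sorted out of tumor, as a bulk sample, so fewer acetylated cells and less acetylation per cell cannot be told apart.

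FGF receptors are receptor tyrosine kinases that bind fibroblast growth factors together with heparan sulfate chains at the cell surface. The bound receptors pair, phosphorylate each other and pass the signal through the adaptor FRS2 to the RAS and MAP kinase cascade, which induces its own inhibitors, the Sprouty, Spred and Dusp proteins. FGFRL1 has the extracellular part of the family but lacks the kinase. FGF signals hold back differentiation of myoblasts and guide muscle progenitors in the embryo, and Fgfr4 is a known target of PAX3-FOXO1. H3K27ac, an acetyl mark on histone H3, lies at active promoters and enhancers.

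The sequences around the strongest peaks of each class are given first, as mm10 bases on the plus strand, with 50 on either side of the summit, the base with most fragments. Capitals mark matches to the motifs searched, which are described further on. In Fgfr1 these were the strongest peak of the flank (chr8:25440687-25440787), of the gene body (chr8:25524132-25524232) and of the promoter (chr8:25519734-25519834).
Fgfr1 flank: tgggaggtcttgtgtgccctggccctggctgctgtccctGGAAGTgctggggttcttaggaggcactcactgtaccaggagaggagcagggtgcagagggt
Fgfr1 gene body: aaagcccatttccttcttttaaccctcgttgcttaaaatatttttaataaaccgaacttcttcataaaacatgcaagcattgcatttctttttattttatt
Fgfr1 promoter: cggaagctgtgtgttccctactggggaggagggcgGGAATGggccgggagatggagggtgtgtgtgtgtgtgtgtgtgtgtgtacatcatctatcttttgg
The Fgfr1 flank and promoter sequences each held 1 match, to an ETS word and a TEAD word, and the gene body sequence was AT-rich, with a GC content of 27.7% against 62.4% and 56.4%.

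For Fgfr2 and Fgfr4 the strongest peak was in the flank, at chr7:130303424-130303524 and chr13:55172379-55172479.
Fgfr2 flank: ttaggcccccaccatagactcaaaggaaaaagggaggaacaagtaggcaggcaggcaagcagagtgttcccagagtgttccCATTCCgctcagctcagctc
Fgfr4 flank: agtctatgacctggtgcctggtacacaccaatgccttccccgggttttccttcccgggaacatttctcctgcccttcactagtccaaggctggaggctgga
The Fgfr2 sequence held 1 TEAD word, read on the minus strand, and the sequence at the Fgfr4 summit held no match.

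Of the receptor genes, Fgfr1 had a promoter peak in the list, and Fgfr2, Fgfr4 and Fgfrl1 had none. For Fgfr3 a peak number is absent from the list, as described with that gene, so the count was 1 of 4 without it and 1 of 5 as listed. Among the 21000 protein-coding genes, 45.6% had a promoter peak. The number was 0 with promoters of 1 kb or with the strongest 25% of peaks alone. It was 2, with Fgfr2 added, with the start sites of GENCODE. Most of the Fgfr2 promoter peaks then lay over 100 kb from its RefSeq span. Gene body peaks occurred in Fgfr1 and Fgfr2, 2 of 5, against 33.2% of all protein-coding genes, and flank peaks were found at all 5, against 82.0%. For flank and gene body peaks the counts were near those of all genes, and the promoter count, 1 gene, is too small to set beside a percent. Summits of all called peaks rested on at least 7 fragments, so a start site with weaker signal would not be in the list.

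**Figure D1:**
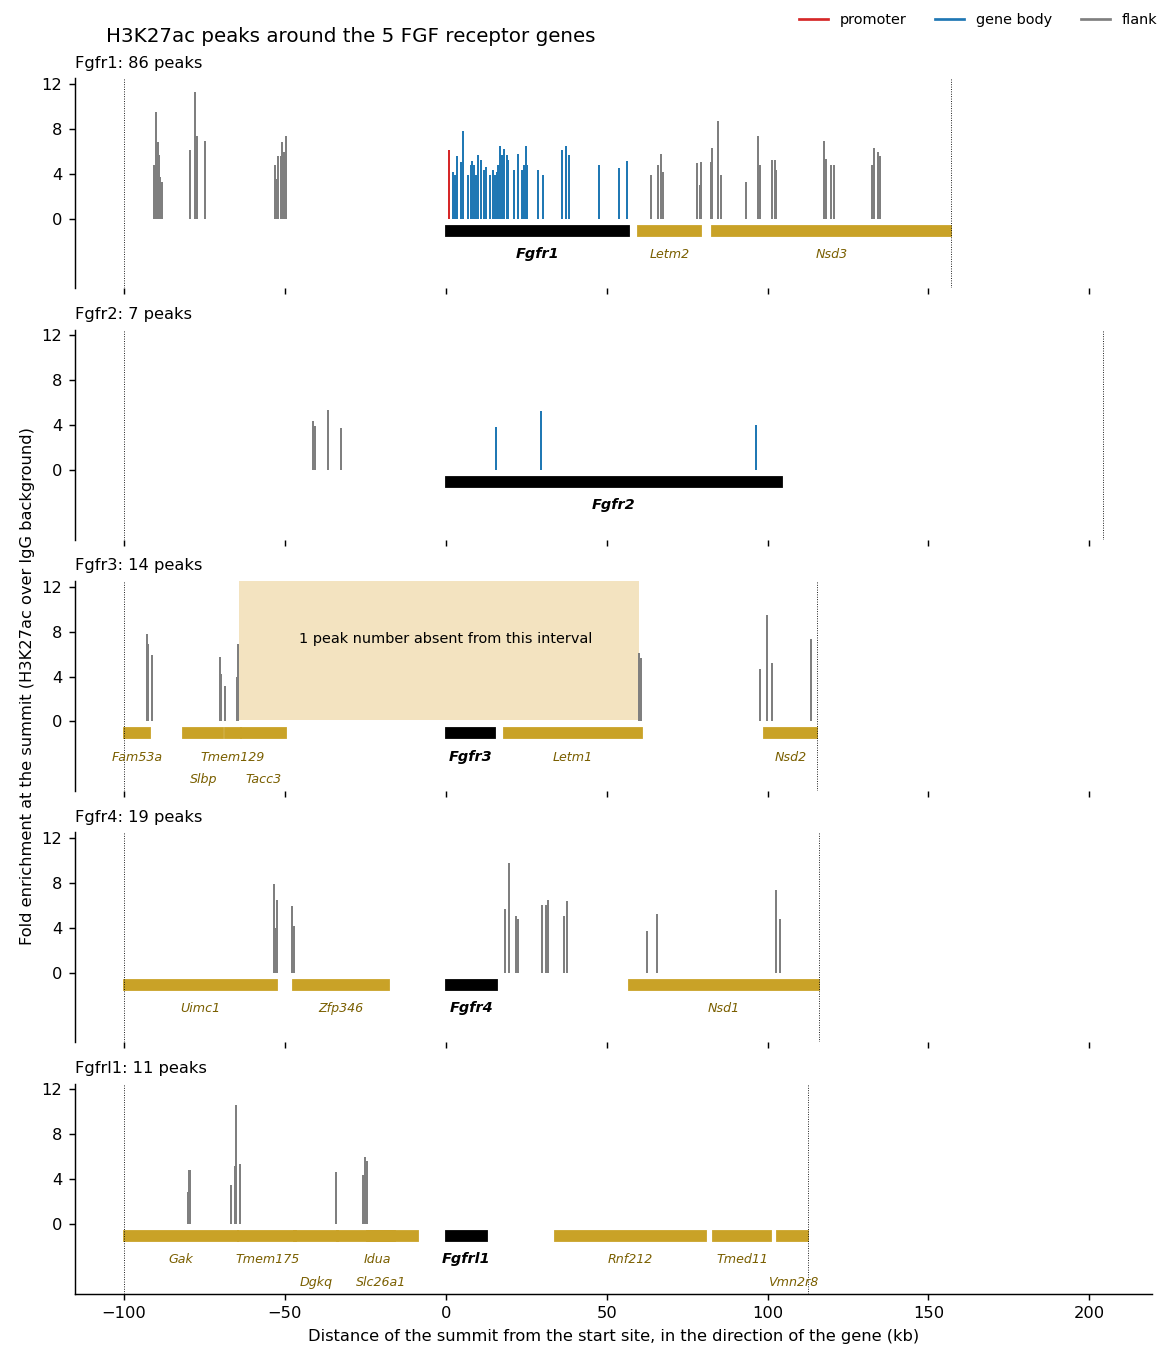
H3K27ac peaks within 100 kb of each FGF receptor gene. Each line is a peak, placed by the distance of its summit from the start site in kb and drawn to the fold enrichment at the summit, with color for class. Black bars are the receptor genes, ochre bars the neighboring protein-coding genes, and dotted lines the ends of the window. Fgfr1 has many peaks along its first 31 kb, and Fgfr4 has a group of 10 just past its end. The shaded stretch around Fgfr3 is where 1 peak number is absent from the list.

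Fold enrichment is the ratio of scaled fragments at the summit to the IgG background, each with 1 added. Over the 137 peaks its median was 5.05, with a range of 2.90 to 11.25, beside a median of 5.22 over the whole list. Peaks at the receptor genes were 167 bp wide at the median and those of the whole list 163 bp. Peaks wider than 1 kb numbered 6, or 4.38% of the 137, against 4.73% of all peaks. Neither strength nor width therefore set the receptor peaks as a whole apart. The 5 genes differed in where the peaks lay and how many there were. Their median folds also differed, from 3.99 at Fgfr2 and 4.79 at Fgfrl1 to 5.01 at Fgfr1, 5.65 at Fgfr4 and 5.85 at Fgfr3.

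The number of peaks per 100 kb of window was 33.47 at Fgfr1, 8.80 at Fgfr4, 6.50 at Fgfr3, 5.17 at Fgfrl1 and 2.30 at Fgfr2. The median over all protein-coding genes was 6.16, so Fgfr1 lay at the percentile of 99.1, Fgfr4 at 63.2, Fgfr3 at 52.0, Fgfrl1 at 44.9 and Fgfr2 at 28.5. Relative to the peak density of its own chromosome, Fgfr1 held 7.94 times as many peaks and Fgfr2 0.52 times. By this window, which takes in the flanks and the neighboring genes, Fgfr1 was the densest of the 5 and Fgfr2 the sparsest. Within the gene body the order was different, since Fgfr2 had 3 peaks there, or 2.93 per 100 kb, and Fgfr3, Fgfr4 and Fgfrl1 had 0 in the list.

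**Figure D2:**
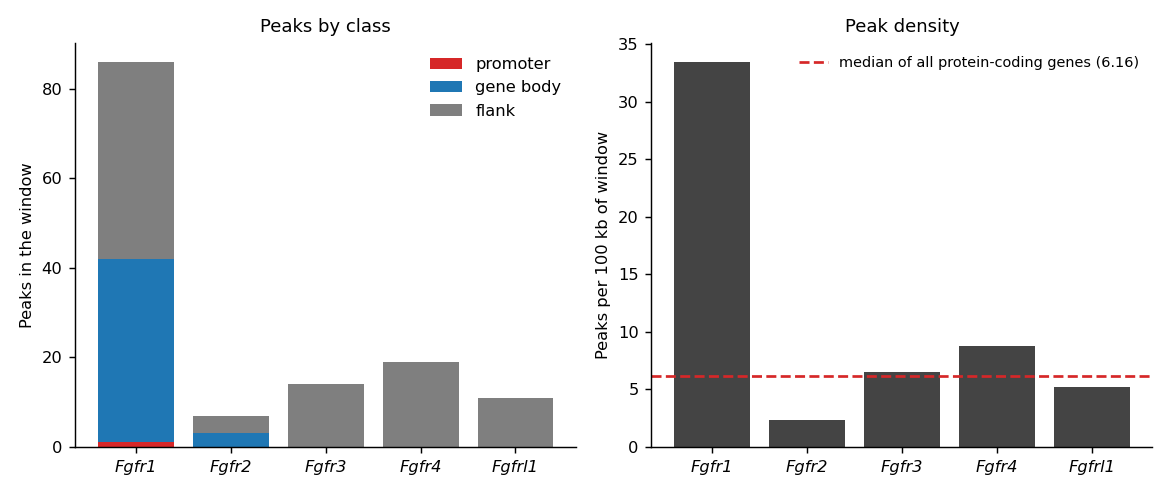
Peak counts at the FGF receptor genes. The left panel gives the peaks in each window by class, and the right panel gives peaks per 100 kb of window, with the median of all protein-coding genes (6.16) as a dashed line. Fgfr1 had 86 peaks and a density of 33.47, and the other 4 genes had 7 to 19 peaks.

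Fgfr1 (chr8:25518759-25575718, plus strand, 57.0 kb) encodes the receptor best known in muscle stem cells and myoblasts. With its 1 curated start site, Fgfr1 had 1 promoter peak. It lay 1.02 kb past the start site, in intron 1, was 172 bp wide and had a fold of 6.08. It rested on 13 fragments, with an exact Poisson 95% interval of 6.9 to 22.2 that covers counting error only. The curated start site itself was not covered, and the 50.75 kb between the nearest upstream summit and this peak held no other peak. These values rest on the choice of start site and window. GENCODE lists 18 start sites for Fgfr1, with which 13 of its peaks were at a promoter and the nearest summit was 0.05 kb from a start site, and a promoter of 5 kb held 7 peaks.

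The gene itself held 42 peaks, 1 at the promoter and 41 in the body. Of these, 36 had their summits in the first 31 kb, and 6 lay between 36.0 and 56.4 kb. Intron 1 (12.8 kb) held 16 summits and intron 2 (23.1 kb) held 20. The body carried 74.6 peaks per 100 kb, at the percentile of 99.2 among the 12491 genes with at least 10 kb of body, and 273 protein-coding genes had as many body peaks or more. The peaks called within Fgfr1 thus lay mostly along the long first introns, ahead of most exons, and were fewer over the rest of the gene.

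The strongest body peak lay 5.4 kb past the start site, was 860 bp wide and had a fold of 7.80 from 17 fragments (9.9 to 27.2). The widest after it, 744 bp at 3.4 kb, had a fold of 5.56 from 24 fragments (15.4 to 35.7). Most other peaks of the gene were narrow and weak. At the median the body peaks were 147 bp wide, with 4.79 as fold and 11 fragments, against 13 fragments in the whole list, and 17 of the 42 gene peaks rested on 10 fragments or fewer. At a −log10 q of at least 5, which most peaks of the whole list did not reach, the gene kept 15 of its 42 peaks. A total of 29 summits also fell in exons of Gm31288, a predicted antisense RNA of the RefSeq annotation, so acetylation of Fgfr1 and of that RNA could not be told apart. At 36.0 to 38.2 kb, around the exon between introns 2 and 3, 3 peaks lay at the start of a further antisense RNA, Gm16159.

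**Figure D3:**
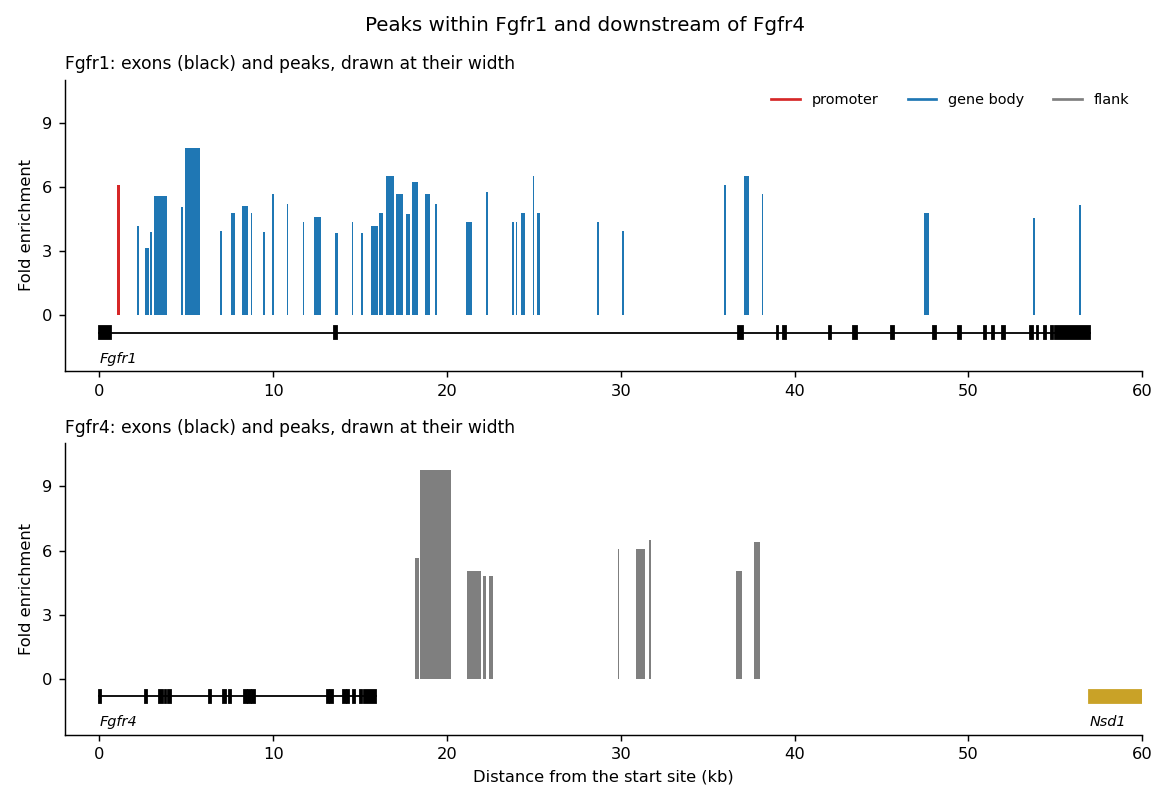
Peaks within Fgfr1 and downstream of Fgfr4. Black boxes are exons, and each peak is drawn at its width in kb from the start site and at its fold enrichment, with color for class. In Fgfr1 most peaks lie in introns 1 and 2, with the strongest at 5.4 kb, and peaks cover 15.8% of the gene. In Fgfr4 the gene is empty and 10 peaks lie between its end and Nsd1, led by 1 peak 1759 bp wide.

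The flanks of Fgfr1 held 44 peaks, 18 upstream and 26 downstream. The upstream peaks lay 90.6 to 49.7 kb before the start site in stretches without a protein-coding gene. The strongest of them, 78.0 kb upstream, was also the strongest of all 137 peaks, with a fold of 11.25, a width of 1484 bp and 25 fragments (16.2 to 36.9). The downstream peaks lay over Letm2, a mitochondrial inner membrane protein gene, and Nsd3, which encodes a histone H3 methyltransferase, and 8 of the 26 were at the promoters of these neighbors. The strongest downstream peak, with a fold of 8.67 from 19 fragments (11.4 to 29.7), lay at a Nsd3 promoter. When peaks less than 12.5 kb apart were joined, leaving out those wholly within 1 kb of a start site, the body of Fgfr1, Letm2 and the start of Nsd3 formed 1 cluster of 53 peaks over 101.7 kb, ranked 110 of 20840 clusters by peak number and 644 by fold times width. The cluster took in the neighbors, so its size is not that of Fgfr1 alone.

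Fgfr4 (chr13:55152818-55168759, plus strand, 15.9 kb), the receptor named as a target of PAX3-FOXO1, had no peak at its promoter and none in its body. The nearest summits were 47.0 kb upstream and 18.3 kb downstream of the start site, leaving 65.37 kb free. Its 19 peaks were all in the flanks. Of these, 5 lay upstream, at the promoters of Uimc1, which encodes a ubiquitin-binding protein of DNA repair, and Zfp346, a zinc finger gene. A further 4 lay in introns of Nsd1, a histone H3 methyltransferase gene.

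The remaining 10 peaks lay between the end of Fgfr4 and Nsd1, at chr13:55170954-55190829, with summits 2.4 to 21.8 kb past the end of Fgfr4, in the 41.0 kb that hold no protein-coding gene. None was within 2 kb of a curated start site. The strongest (chr13:55171286-55173044) was 1759 bp wide, the widest of the 137 peaks, at the percentile of 98.9 by width in the list. It had a fold of 9.77 from 32 fragments (21.9 to 45.2), with its summit 19.6 kb from the start site. This 1 peak made up 37.9% of the bases covered by the group.

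The other 9 peaks of the group had folds of 4.79 to 6.51 from 10 to 16 fragments. The median fold of the 10 was 5.87, beside 5.22 over the whole list. It was 4.79 for the body peaks of Fgfr1 and 5.85 for the flank peaks of Fgfr3. A −log10 q of 5 was reached by 8 of the 10, by 15 of 42 gene peaks of Fgfr1 and by 10 of 14 peaks of Fgfr3. The median −log10 q of the whole list was 4.42, so most of its peaks did not reach 5. The exact share over all peaks is not given here, so these counts cannot be called high or low. Joined as above, the 10 peaks formed a cluster of 19.9 kb ranked 2240 by peak number and 1647 by fold times width, within the first 7.90% of clusters. Fgfr1 thus had peaks both in its introns and in its flanks, and Fgfr4 in its flanks alone. Which gene the 10 peaks act on was not tested, since Fgfr4 and Nsd1 flank them on either side.

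The part of the Fgfr4 group with most E-boxes, the binding word of myogenic bHLH factors such as MYOD1, was a stretch of 300 bases (chr13:55174497-55174796, plus strand). It lay in the peak with its summit 21.9 kb from the start site. It is shown with its 4 E-boxes in capitals and was chosen for their number.
Fgfr4 downstream stretch: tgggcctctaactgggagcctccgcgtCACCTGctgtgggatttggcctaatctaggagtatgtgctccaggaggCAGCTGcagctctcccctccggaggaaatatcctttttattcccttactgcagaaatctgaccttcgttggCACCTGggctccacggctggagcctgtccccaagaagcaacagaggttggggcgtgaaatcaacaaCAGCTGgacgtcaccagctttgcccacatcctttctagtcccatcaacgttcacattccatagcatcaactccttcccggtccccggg
Over the 10 peaks the word CAGCTG occurred 6 times and CACCTG, read on either strand, 6 times, or 12.91 per 10 kb each, against 5.46 and 6.63 per 10 kb over all peaks of the list. The TEAD word GGAATG was as frequent, with 7 matches or 15.06 per 10 kb against 6.29. Per 10 kb, the ETS word GGAAGT was at 8.61 against 7.3 and the forkhead word TGTTTAC at 4.3 against 1.68. The AP-1 word TGANTCA was at 4.3 against 4.78. The RUNX word TGTGGT was at 2.15 against 8.8 and the MEF2 word CTANNNNTAG at 0 against 1.72. Counts of 7 or fewer are small. Of the 300-base windows around all summits, 28.66% held at least 1 of the 2 E-boxes and 0.11% at least 4, but the stretch shown was picked as the richest of its group and is not to be read against that share. No match to the PAX paired-domain core GTCACG, to the homeodomain dimers TAATNNATTA and TAATNNNATTA or to the composite ATTAGTCAC lay in these 10 peaks, which says only that these letters are not there.

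Fgfr2 (chr7:130162451-130266808, minus strand, 104.4 kb), a receptor of epithelium and skeleton in its best known roles, had 3 gene body peaks, in introns 2, 4 and 15. Their folds were 3.86, 5.22 and 3.99 from 8, 11 and 9 fragments. None of them reached a −log10 q of 5, as most peaks of the whole list did not. The nearest to the start site was 15.6 kb into the gene.

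The 4 flank peaks of Fgfr2 lay upstream of it, 32.7 to 41.2 kb before the start site, with no protein-coding gene in the window. The strongest was 1169 bp wide with a fold of 5.35 from 17 fragments (9.9 to 27.2), and the others had folds of 3.72 to 4.36 from 8 or 9 fragments. Fgfr2 was the largest of the 5 genes and had the fewest peaks.

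Fgfr3 (chr5:33721724-33737068, plus strand, 15.3 kb, with 3 start sites), known above all for its part in bone growth, had no peak in the gene in the list as read. The peaks were numbered along the genome, and 1 number was absent between chr5:33657394 and chr5:33781701, an interval that holds the whole of Fgfr3. A peak with that number was not analysed here, so the absence of a peak at Fgfr3 is not shown. Of its 14 flank peaks, 10 were at the promoters of other genes, namely Fam53a, Slbp, Tmem129, Tacc3 and Letm1, of which SLBP binds histone mRNA and TACC3 acts on the mitotic spindle. The other 4 lay just before and in Nsd2, a histone H3 methyltransferase gene, and the strongest of them had a fold of 9.47, a width of 1338 bp and 31 fragments (21.1 to 44.0).

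Fgfrl1 (chr5:108694229-108706950, plus strand, 12.7 kb) had no peak in the gene or downstream. All 11 of its peaks were upstream, inside other genes, and the next summit downstream of its start site was 442.4 kb away. The strongest, with a fold of 10.64 and 47 fragments (34.5 to 62.5), lay at the shared promoter of Gak, a kinase of clathrin uncoating, and Tmem175, a lysosomal channel. In all, 4 of the 11 peaks were at promoters of Gak, Tmem175, Dgkq or Idua. Over all 5 genes, 27 of the 92 flank peaks were at the promoter of another gene. The same share over all genes is not given here, so these counts cannot be called high or low.

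CpG-rich start sites more often carried a promoter peak in this library, so the receptors were placed on that scale. The number of CpG within 500 bp of the start site, taking the richest site of each gene, was 112 at Fgfrl1, 92 at Fgfr3, 78 at Fgfr1, 72 at Fgfr4 and 37 at Fgfr2. With all genes divided into 10 equal groups by CpG number, and in the groups of these genes in the same order, 72.4%, 71.0%, 69.8%, 69.8% and 53.3% had a promoter peak. Most genes with as many CpG thus had a promoter peak, and of the receptors Fgfr1 did. The promoters of Fgfr4 (chr13:55152568-55152867, plus strand) and Fgfr2 (chr7:130266759-130267058, minus strand), from RefSeq on GRCm38.p6, show the difference in 300 bases in the direction of the gene, with each CpG in capitals.
Fgfr4 promoter: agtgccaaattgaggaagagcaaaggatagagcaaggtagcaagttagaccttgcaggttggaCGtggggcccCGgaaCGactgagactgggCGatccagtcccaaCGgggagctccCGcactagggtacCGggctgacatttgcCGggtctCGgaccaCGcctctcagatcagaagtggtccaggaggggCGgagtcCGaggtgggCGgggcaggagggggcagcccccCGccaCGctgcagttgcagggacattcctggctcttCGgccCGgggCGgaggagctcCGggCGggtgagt
Fgfr2 promoter: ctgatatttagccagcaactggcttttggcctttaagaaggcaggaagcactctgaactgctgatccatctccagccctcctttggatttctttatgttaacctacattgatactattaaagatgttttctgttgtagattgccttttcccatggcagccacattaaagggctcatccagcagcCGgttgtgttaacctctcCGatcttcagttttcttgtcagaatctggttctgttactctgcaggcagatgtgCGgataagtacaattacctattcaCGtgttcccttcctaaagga
The Fgfr4 sequence held 20 CpG at a GC content of 65.3% and the Fgfr2 sequence 4 at 43.7%. Promoters of Fgfr3 and Fgfrl1 were also in the RefSeq table, with 26 or 30 and 37 CpG, and Fgfr1 was not.

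Motif words near the summits were counted over the same windows, on either strand, and set beside all peaks of the list. Of the 137 windows, 3 held the PAX paired-domain core GTCACG, all at Fgfr1, or 2.2% (95% Wilson interval 0.7 to 6.2%), against 1.34% of all windows. The E-box CAGCTG was in 4.4% against 5.24%, the E-box CACCTG in 5.1% against 7.40%, the TEAD word GGAATG in 7.3% against 5.74%, the ETS word GGAAGT in 5.1% against 6.49% and the RUNX word TGTGGT in 8.0% against 8.5%. The AP-1 word TGANTCA was in 1.5% against 3.73%, the forkhead word TGTTTAC in 2.9% against 1.54% and the MEF2 word CTANNNNTAG in 2.2% against 1.4%. For each of these words the share in all peaks lay inside the Wilson interval of the receptor peaks, so no difference was detectable with 137 peaks. Each PAX homeodomain dimer was in 1 of the 137 windows, or 0.7%, against 0.22% and 0.2% of all windows, and both windows were in the upstream flank of Fgfr1, 51.2 and 49.7 kb before the start site. Outside the windows, a further match, TAATTTCATTA, lay in the gene body of Fgfr1 in the peak at 21.1 kb. The match at 51.2 kb read TAATTAATTA.

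Among receptor tyrosine kinase genes, Fgfr1 had rank 3 by peak density and rank 4 by number of body peaks. The list held 59 genes, the 5 receptors and 54 others, of which 23 of 54 (42.6%) had a promoter peak and 28 of 54 a gene body peak. Aatk and Ddr2, a collagen receptor, exceeded Fgfr1 in density. The highest promoter folds were 9.96 at Ddr1 and Met, and 8.67 at Erbb2, with 22, 24 and 19 fragments. The highest body densities were 70.4 peaks per 100 kb at Epha1 and 66.2 at Ddr2, beside 74.6 at Fgfr1. Windows of ERBB genes held 172 peaks in all, those of insulin and IGF receptor genes 105, and those of PDGF receptor genes and Kit 11. Egfr held 108 of the 172 and Igf1r 75 of the 105. The windows differ in length, so these totals do not compare the families. Egfr and Met followed Fgfr1 in density, at ranks 4 and 5. Fgfr2 had rank 44 by density and rank 26 by number of body peaks, and Fgfr3, Fgfr4 and Fgfrl1 had ranks 29, 24 and 33 by density and shared rank 31, with 0 body peaks.

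**Figure D4:**
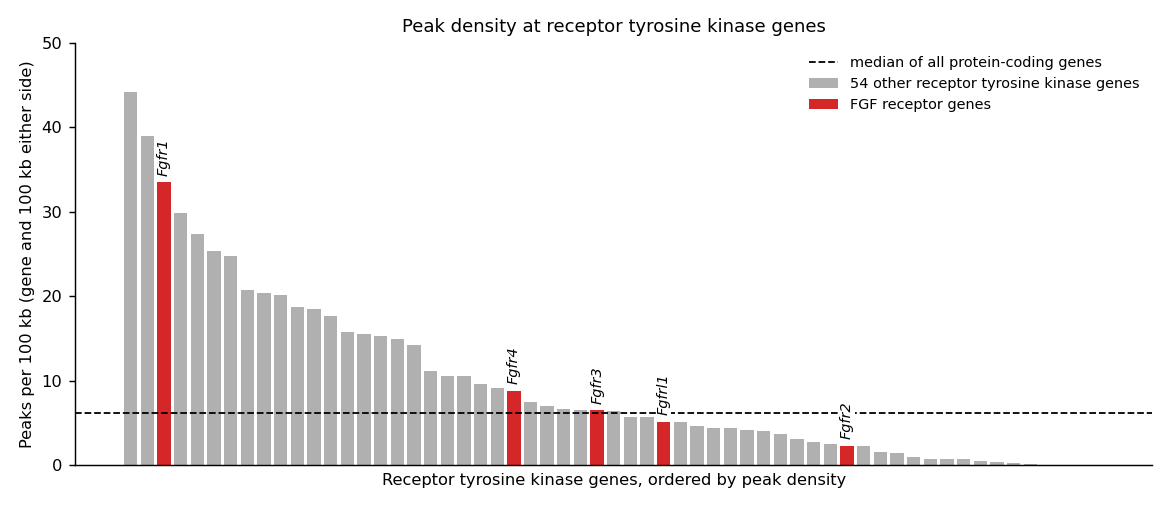
Peak density at 59 receptor tyrosine kinase genes. Bars give peaks per 100 kb of gene and flanks, in decreasing order, with the 5 FGF receptor genes in red and the median of all protein-coding genes dashed. Fgfr1 has rank 3 at 33.47, Fgfr4, Fgfr3 and Fgfrl1 lie near the median of 6.16, and Fgfr2 is at 2.30.

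The other genes of the FGF pathway differed by role. Promoter peaks were found at 1 of 18 secreted ligands (5.6%) and at 0 of 4 intracellular homologous factors, beside 45.6% of all genes. The ligand was Fgf8, with a fold of 7.80 from 17 fragments. It also had the highest body density of the ligands at 113.8 peaks per 100 kb in a body of 4.4 kb. Fgf2, a mitogen of myoblasts, followed with 11 body peaks and 18.5 per 100 kb.

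Of co-receptors and heparan sulfate carriers, 5 of 14 (35.7%) had a promoter peak. The strongest were at Sdc2 with a fold of 9.10, Gpc1 with 8.88 and Sdc4 with 8.43, all of them core proteins of cell surface heparan sulfate. Sdc4, a syndecan of muscle stem cells, held 20 body peaks, or 118.1 per 100 kb, and Gpc1 22.6 per 100 kb. Neither Kl nor Klb, the klotho co-receptors of the endocrine FGFs, had a peak at the promoter or in the gene.

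Promoter peaks were present at 12 of 13 adaptors and effectors (92.3%), all but Frs3. The highest folds were 12.11 at Ptpn11, which encodes the phosphatase SHP2, 10.82 at Cbl, a ubiquitin ligase, and 9.10 at Map2k2, a MAP kinase kinase. Grb2, an adaptor that links receptors to RAS, had a body density of 32.7 peaks per 100 kb. Of the feedback genes, 13 of 13 matched in the annotation, of 14 listed, had a promoter peak. Etv1, an ETS factor induced by FGF signals, had a fold of 16.84 from 38 fragments, Spred1 12.22 and Dusp4 10.82, and the body densities of Spry2 and Dusp6, 174.1 and 88.6 per 100 kb, came from bodies of 2.9 and 2.3 kb. Most listed adaptors, effectors and feedback genes thus had a promoter peak in this list, and most FGF ligands had none called. Of the receptors 1 of 5 had one, a count too small to set beside a percent. A promoter without a called peak is not shown to lack acetylation. The adaptor and feedback lists are not specific to FGF signals, so no such signal can be read from their acetylation.

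**Figure D5:**
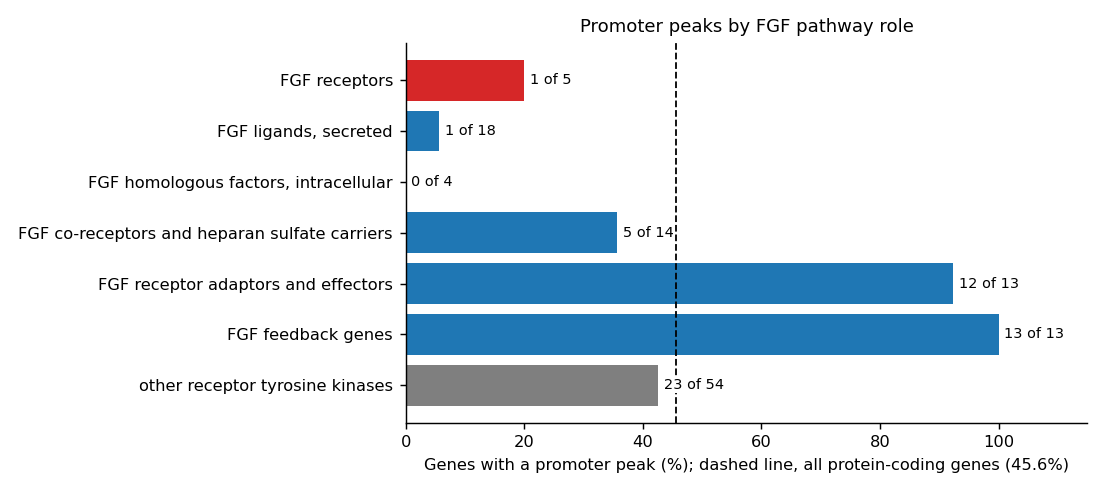
Genes with a promoter peak by role in the FGF pathway. Bars give the percent of each list with a peak within 2 kb of a start site, with the counts beside them, and the dashed line is the 45.6% of all protein-coding genes. Ligands (1 of 18) and receptors (1 of 5) lie below the line, and adaptors (12 of 13) and feedback genes (13 of 13) above it.

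The library was checked against 9 rhabdomyosarcoma and muscle genes. Only Pax3 had a promoter peak (fold 18.10, 46 fragments), and this is the gene that carries the P3F alleles. The start sites of Myod1, Myog and Cdh15 lay 26.05, 56.11 and 15.73 kb from the nearest summit, and Des, Myf5, Chrna1, Mef2c and Msc also lacked a promoter peak. The windows of most of them held peaks, beside 82.0% of all protein-coding genes with a flank peak. There were 48 at Myf5 (23.53 per 100 kb), 47 at Chrna1 (21.65), 21 at Cdh15 (9.59) and 20 at Des (9.6). Myod1 had 12 (5.92), Myog 9 (4.44), Mef2c 2 (0.55) and Msc 0. The median of the 9 genes was 9.59 peaks per 100 kb, against 6.16 over all genes. Myod1, Myog, Mef2c and Msc lay below 6.16. The promoters of 8 of the 9 genes thus had no peak in this list, and what this means for the pattern at the FGF receptors was not tested.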

How the data were processed

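CUT&RUN for H3K27ac and IgG was performed by the authors on nuclei of MCP and TCP tumors. Per the methods, fragments that did not map to E. coli were mapped to mm10 with bowtie, reads in problematic regions were discarded and peaks were called for each library against its IgG library with MACS1.4. The submitters' processing notes name BWA, SAMtools and MACS2, and the layout of the list is that of MACS2. The deposited list gives, for each peak, a score (the whole part of 10 times the −log10 q), the fold enrichment ratio at the summit, the −log10 p, the −log10 q and the summit position. The list held 122375 peaks of 1 library, with a largest q of 0.0471. Its peak numbers ran to 122959, and 584 of them were absent at 285 places. The library size was not given in the sources used here.

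Fragments at each summit were recovered from the deposited fold and −log10 p by the formula of the caller, with a scale of 0.8845 between the libraries and a tolerance of 0.01. A solution was found for all but 2 peaks, where a scale 3 percent off solved 1.85% of peaks, and 96.8% had a single solution. The lowest background was 1.055 fragments. This step and the classes were tested on simulated data.

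Peaks were set against the curated RefSeq annotation of GRCm38 (the assembly of mm10), with 21000 protein-coding genes and 31601 start sites. An overlap of 1 bp put a peak in a class, promoters before gene bodies before flanks. Densities of gene bodies were compared over bodies of at least 10 kb. Motifs were searched as exact words on both strands. Named genes were the 5 receptors, per list the 3 with the highest promoter fold and the 2 with the highest body density, and neighbors with a promoter peak. The values of 1 listed gene and 1 motif are not reported here. The other genes named, the joined clusters and the stretch with most E-boxes were chosen after their values were seen. The receptors and the gene lists were chosen with earlier results of these data known. Exact Poisson and Wilson intervals cover counting error only, since reads without molecular identifiers are not independent molecules. Python 3.11.15, pandas 2.3.3, scipy 1.17.1, statsmodels 0.14.6 and pysam 0.24.0 were used.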

Additional observations from a re-analysis of the deposited data

How the results depend on the processing

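No paired analysis was possible because the list comes from 1 library, and no library could be left out. The alternatives were a class by summit or by most of the peak, peaks of a −log10 q of at least 5 or the strongest 25%, promoter windows of 1 and 5 kb, flanks of 50 kb and other start sites. A further one, leaving out genes whose window held an absent peak number, was chosen after seeing the data. The number of receptor genes with a promoter peak went from 1 to 0 with the strongest 25% of peaks and with promoters of 1 kb. It went to 2 with the start sites of GENCODE, where Fgfr2 gained 6 promoter peaks. The farthest of its start sites lay 2856.5 kb upstream of the RefSeq one. Most of the 6 lay outside its window, since the peaks of all receptors went from 137 to 142 and the Fgfr2 body peaks from 3 to 2. The 137 peaks became 67 at a −log10 q of at least 5, 26 among the strongest 25% and 87 with flanks of 50 kb. Their median fold, 5.05, became 6.08 and 7.37 under the first 2 of these. The median distance of the nearest summit, 18.34 kb, became 64.59 kb with the strongest 25%, under which promoter peaks also fell from 50.0% to 37.1% of FGF pathway genes and from 42.6% to 18.5% of receptor kinase genes. In the other 46 comparisons of these results, counts stayed within 1.5 times of the main value and shares and medians within its 95% interval. Peaks were counted there over all classes together, with the PAX paired-domain core as the motif. For single genes, classes and other motif words, 35 comparisons moved beyond these limits and 160 did not. The Fgfr1 body peaks went from 41 to 14 at a −log10 q of at least 5 and to 3 with the strongest 25%. With windows about 2 times as wide, 5 further motif words left their intervals, with shares of 13.9% for CACCTG, 9.5% for CAGCTG, 10.9% for ETS, 16.1% for RUNX and 13.1% for TEAD, against 12.4%, 10.01%, 13.4%, 15.85% and 11.42% of all windows of that size. A wider window holds more matches, so such a rise says little. At a −log10 q of at least 5, CACCTG fell to 1.5% and RUNX to 3.0% of 67 peaks, against 7.61% and 8.47% of all such peaks. The other words stayed inside their intervals there. With 7 fragments as the lowest count at any called summit, sites with weaker acetylation are not in the list, and the lack of replicates leaves the spread between tumors unknown.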

Other observations

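Fgfr1, Fgfr3 and Fgfr4 each have a gene of the Nsd histone methyltransferase family as a neighbor, and Fgfr1 and Fgfr3 also have a Letm gene. The Letm genes lay 2.8 kb from Fgfr1 and 2.6 kb from Fgfr3, and Nsd3, Nsd1 and Nsd2 lay 25.9, 41.0 and 83.6 kb from Fgfr1, Fgfr4 and Fgfr3. Nsd3 had 5 promoter peaks and 20.6 body peaks per 100 kb, at the percentile of 87.9. Nsd2 and Nsd1 had no peak at a curated start site and 4.1 and 3.8 body peaks per 100 kb. With predicted RefSeq transcripts included, Nsd2 gained 3 promoter peaks, the strongest with a fold of 9.47, and Nsd1 gained none. Letm2 had 3 promoter peaks and 23.5 body peaks per 100 kb, and Letm1 2 promoter peaks and none in the body. These neighbors were looked at after the values of the receptors were known.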
